A study of Mus musculus with 8 samples.

Results

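Terminally exhausted-like CD8 T cells were chosen by their own UMI counts in single-cell expression libraries of MC38 tumours: CD8 T cells that held at least 1 UMI of Pdcd1 and at least 1 UMI of Havcr2, with no UMI of Tcf7. A UMI (unique molecular identifier) stands for 1 captured RNA molecule. The CD8 gate asked for a UMI of Cd8a or Cd8b1 and a UMI of a CD3 chain, with no Cd4 and at most 1 UMI in all of the myeloid genes Lyz2, C1qa, C1qb and C1qc. Cycling cells with over 1 UMI of Mki67 and Top2a were set aside, as were cells with 5 or more UMIs of granzymes C to F or 10 or more of Gzma. The rule took 1394 cells of 36011 barcodes in the 4 libraries, of which 34278 passed the filter on genes and mitochondrial RNA and 25936 were in the CD8 gate. Pdcd1 encodes the inhibitory receptor PD-1 (GRCm38 chromosome 1, bases 94038305 to 94052553, minus strand). Havcr2 encodes the inhibitory receptor TIM-3 (chromosome 11, bases 46454935 to 46481255, plus strand), and Tcf7 the transcription factor TCF-1 (chromosome 11, bases 52252371 to 52283014, minus strand).

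The study asked how rhIL-7-hyFc, a long-acting recombinant human interleukin-7 fused to a hybrid Fc, alone or with a T cell engager, changed the T cells of a tumour. MC38 is a mouse colon carcinoma line, and all mice were wild-type C57BL/6 with a palpable MC38 tumour. Experiment 1 gave rhIL-7-hyFc at 10 mg/kg or buffer under the skin, and CD8 positive cells of the tumours were selected with magnetic beads at day 7. Experiment 2 gave every mouse rhIL-7-hyFc at 1.25 mg/kg, with or without an intravenous bispecific T cell engager (TCE) that binds mouse PD-L1 and CD3 epsilon and was started 3 days later. Live CD45+ TCRb+ CD8a+ cells of that experiment were sorted 24 hours after the last treatment. Experiment 2 therefore had no library without rhIL-7-hyFc. The 4 groups had 1 expression library and 1 T cell receptor (TCR) library each, and how many tumours a library pooled is not stated. With 1 library a group there is no test of any difference, and every 95% interval below covers counting error only. Values were compared only between the libraries of 1 experiment, or between classes of cells of the same library.

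T cell exhaustion is a state that CD8 T cells enter under lasting antigen contact, in chronic infection and in tumours. A TCF-1 positive precursor keeps the capacity to renew, and it gives rise to cells that lose TCF-1, carry several inhibitory receptors and keep granzymes and chemokines. The cells at the far end are called terminally exhausted, and TIM-3 and CD39 are commonly used to mark them. Interleukin-7 acts through the receptor chain encoded by Il7r and through STAT5, and it is known for the survival of naive and memory T cells.

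In experiment 1 these cells made up 0.754% of the CD8 gate after rhIL-7-hyFc at 10 mg/kg (41 of 5436 cells, exact Clopper-Pearson interval 0.542 to 1.02%). In the buffer library they made up 10.1% (323 of 3183 cells, 9.12 to 11.2%), so the share was 13.5-fold lower after rhIL-7-hyFc. In experiment 2 they made up 6.55% with rhIL-7-hyFc plus TCE (662 of 10108 cells, 6.07 to 7.05%), against 5.10% with rhIL-7-hyFc at 1.25 mg/kg alone (368 of 7209 cells, 4.61 to 5.64%), a ratio of 1.28. The intervals of the shares did not overlap in either experiment. After each cell was thinned to 4000 UMIs, the shares were 0.783% after rhIL-7-hyFc at 10 mg/kg and 10.4% with buffer. In experiment 2 they were 6.12% with rhIL-7-hyFc plus TCE and 4.68% with rhIL-7-hyFc at 1.25 mg/kg. Here and below, the rule was applied anew to the thinned counts, so the thinned members are not all the same cells. The denominators differed in what else they held. CD8 T cells without a Pdcd1 UMI were 72.6% of the gate after rhIL-7-hyFc at 10 mg/kg and 23.2% with buffer, and 20.8% with rhIL-7-hyFc plus TCE and 47.5% with rhIL-7-hyFc alone. Within the gate left after cycling and granzyme-high cells were set aside, the shares were 0.953% after rhIL-7-hyFc at 10 mg/kg and 19.5% with buffer. In that same gate of experiment 2 they were 13.8% with rhIL-7-hyFc plus TCE and 7.27% with rhIL-7-hyFc alone, a ratio of 1.90 where the whole gate gave 1.28.

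**Figure D1:**
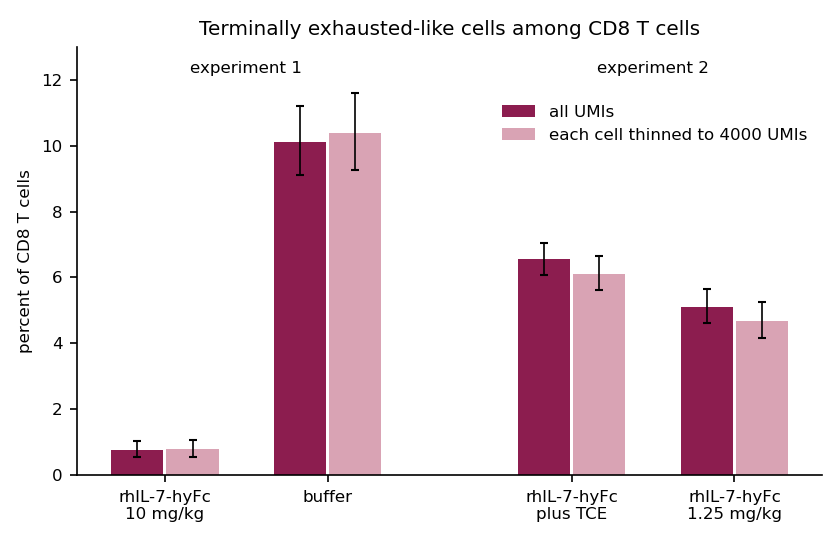
Share of terminally exhausted-like cells in the CD8 gate of each library, in percent, with all UMIs (dark bars) and with each cell thinned to 4000 UMIs (light bars); error bars are exact 95% Clopper-Pearson intervals. The rhIL-7-hyFc 10 mg/kg library stands at 0.754% and the buffer library at 10.1%, while the rhIL-7-hyFc plus TCE library at 6.55% and the rhIL-7-hyFc 1.25 mg/kg library at 5.10% lie close together.

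The gates that set cells aside mattered for what was counted. The same pattern of Pdcd1 and Havcr2 with no Tcf7 was present in 56.0% of the granzyme C to F cells after rhIL-7-hyFc at 10 mg/kg, 59.1% with buffer, 52.0% with rhIL-7-hyFc plus TCE and 48.3% with rhIL-7-hyFc alone. It was present in 21.9% of the cycling cells after rhIL-7-hyFc at 10 mg/kg and 56.6% with buffer, and in 31.8% with rhIL-7-hyFc plus TCE and 27.7% with rhIL-7-hyFc alone. Without these gates the pattern took in 6.27% of the CD8 gate after rhIL-7-hyFc at 10 mg/kg and 36.7% with buffer, and 24.0% with rhIL-7-hyFc plus TCE and 16.7% with rhIL-7-hyFc alone. The class is thus the part of a wider Pdcd1 Havcr2 population that lay under the limits on Mki67 and Top2a and on granzymes A and C to F. The first limit allowed 1 UMI, and 24.4% of the members after rhIL-7-hyFc at 10 mg/kg and 27.9% with buffer held 1 UMI of Mki67 or Top2a, as did 11.9% with rhIL-7-hyFc plus TCE and 14.1% with rhIL-7-hyFc alone.

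Many members lay close to the threshold of the rule. Exactly 1 Havcr2 UMI was held by 46.3% of the members after rhIL-7-hyFc at 10 mg/kg and 51.7% with buffer, and by 53.6% with rhIL-7-hyFc plus TCE and 62.0% with rhIL-7-hyFc alone. Just outside the rule, 174, 423, 1533 and 980 cells in the same order of libraries had Pdcd1 and no Tcf7 but no Havcr2 UMI. Only 3, 6, 13 and 19 cells, in that order, were left out for a single Tcf7 UMI. Members with at least 2 UMIs of both receptors were 53.7% after rhIL-7-hyFc at 10 mg/kg and 44.9% with buffer, and 43.7% with rhIL-7-hyFc plus TCE and 34.5% with rhIL-7-hyFc alone. A class cut from counts in this way is a range rather than a type.

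RNA outside cells can give UMIs to cells that do not express a gene. Macrophage-like barcodes, which should hold little Pdcd1, had a Pdcd1 UMI in 3 of 59 barcodes after rhIL-7-hyFc at 10 mg/kg (5.08%, median 14347 UMIs) and 2 of 42 with buffer (4.76%, median 8427). With rhIL-7-hyFc plus TCE it was 0 of 10 (interval up to 30.8%, median 7858), and with rhIL-7-hyFc alone 2 of 176 (1.14%, median 6071). These shares rest on few barcodes, and Pdcd1 RNA of the macrophages' own was not told apart from free RNA in them. CD8 T cells of the gate with a UMI of both Ccr7 and Lef1, genes of naive T cells, held a Pdcd1 UMI in 3.58% after rhIL-7-hyFc at 10 mg/kg (84 of 2344, median 9469 UMIs) and 32.4% with buffer (90 of 278, median 7670). In experiment 2 it was 21.1% with rhIL-7-hyFc plus TCE (220 of 1044, median 5963) and 6.94% with rhIL-7-hyFc alone (104 of 1498, median 5145). A Havcr2 UMI was held by 0.384, 7.55, 3.16 and 1.60% of these cells in the same order of libraries. Activated cells with Pdcd1 of their own and free RNA cannot be told apart in them. The part of such RNA in the difference in shares was not tested. The median depth of the members was 12673 UMIs after rhIL-7-hyFc at 10 mg/kg and 8139 with buffer, and 5888 with rhIL-7-hyFc plus TCE and 5734 with rhIL-7-hyFc alone. The 41 members after rhIL-7-hyFc at 10 mg/kg held 536729 UMIs in all, against 2707030 in the buffer members, so their values rest on the fewest molecules. Members with rhIL-7-hyFc plus TCE held 4242176 UMIs and those with rhIL-7-hyFc alone 2389984. Between 45 and 195 barcodes were shared by a pair of libraries, at most 2.09% of the smaller library, and 1 member barcode was shared, between the libraries of experiment 2.

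Genes that the rule did not use gave the label a mixed check. T cell genes and several inhibitory receptors were present, and Entpd1 was held by between 38.0 and 78.0% of members. Cd101 and Cd38, further markers of late exhaustion, were low, between 17.2 and 62.4 CPM, with no other class set beside them. The label is used here as the name of the rule. Levels are given as CPM, the count of a gene scaled to the UMIs summed over the members of a library. Trac, the constant part of the TCR alpha chain, stood at 376 CPM after rhIL-7-hyFc at 10 mg/kg and 407 CPM with buffer, and at 334 CPM with rhIL-7-hyFc plus TCE and 335 CPM with rhIL-7-hyFc alone. A TCR beta chain was read in all 41 members after rhIL-7-hyFc at 10 mg/kg and in 264 of 323 with buffer, in 552 of 662 with rhIL-7-hyFc plus TCE and in 286 of 368 with rhIL-7-hyFc alone. Lag3, an inhibitory receptor for MHC class II, had a UMI in 97.6% of the members after rhIL-7-hyFc at 10 mg/kg and 93.5% with buffer. With rhIL-7-hyFc plus TCE it was 92.0% and with rhIL-7-hyFc alone 92.7%. Tigit, an inhibitory receptor for CD155, was held by 95.1% of the members after rhIL-7-hyFc at 10 mg/kg and 83.9% with buffer, and by 94.1% with rhIL-7-hyFc plus TCE and 87.0% with rhIL-7-hyFc alone. Entpd1, which encodes the ectonucleotidase CD39, was held by 78.0% after rhIL-7-hyFc at 10 mg/kg and 61.6% with buffer, and by 43.1% with rhIL-7-hyFc plus TCE and 38.0% with rhIL-7-hyFc alone. The CD8 T cells with Ccr7 and Lef1 held Tigit in 52.4, 55.0, 65.1 and 39.5% in the same order of libraries. A Tigit UMI alone thus does not set the members apart. Those cells held Lag3 in 3.11, 28.8, 15.7 and 4.94%, and Entpd1 in 13.3, 6.12, 6.13 and 4.54%. The members of experiment 1 differed in depth. Those chosen anew after thinning to 4000 UMIs, not all the same cells, had the opposite order for Lag3 and Tigit. Lag3 was at 82.9% after rhIL-7-hyFc at 10 mg/kg and 92.1% with buffer, and Tigit at 65.9 and 73.5% in that order. Entpd1 was then held by 46.3% after rhIL-7-hyFc at 10 mg/kg and 43.0% with buffer. In experiment 2 the thinned shares with the combination and with rhIL-7-hyFc alone were 88.7 and 88.1% for Lag3, 86.0 and 71.0% for Tigit, and 35.6 and 27.6% for Entpd1. Cd101 and Cd38, which mark late exhausted cells in mice, were low, at 26.1 and 27.9 CPM after rhIL-7-hyFc at 10 mg/kg and 21.4 and 62.4 CPM with buffer. In experiment 2 Cd101 was at 22.2 CPM with rhIL-7-hyFc plus TCE and 17.2 CPM with rhIL-7-hyFc alone, and Cd38 at 24.3 and 25.9 CPM in that order.

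RNA of other cell types was present in some members. The 23 macrophage and monocyte markers summed to 527 CPM in members after rhIL-7-hyFc at 10 mg/kg and 1328 CPM with buffer, and to 411 CPM with rhIL-7-hyFc plus TCE and 2692 CPM with rhIL-7-hyFc alone. A UMI was seen for 14 of them after rhIL-7-hyFc at 10 mg/kg and for 23 with buffer, and for 20 with rhIL-7-hyFc plus TCE and 23 with rhIL-7-hyFc alone. C1qa, Csf1r and Adgre1 were among those at 0 after rhIL-7-hyFc at 10 mg/kg, and Csf1r, Adgre1 and Fcgr3 were at 0 with rhIL-7-hyFc plus TCE. T cells also express Tyrobp, Fcer1g, Ctss and Cd74 of this macrophage and monocyte list. After rhIL-7-hyFc at 10 mg/kg the list held 283 UMIs in members. The 38 markers of macrophages, dendritic cells and neutrophils that T cells lack held 23 UMIs there. In the other libraries the RNA of those 38 markers was concentrated in few cells. Members with at least 10 UMIs of myeloid markers that T cells lack numbered 0 of 41 after rhIL-7-hyFc at 10 mg/kg and 7 of 323 with buffer, and 6 of 662 with rhIL-7-hyFc plus TCE and 24 of 368 with rhIL-7-hyFc alone. No such member was seen after rhIL-7-hyFc at 10 mg/kg, which at 41 cells allows up to 8.60%. These cells held 67.7% of the members' myeloid UMIs with buffer, 77.2% with rhIL-7-hyFc plus TCE and 91.3% with rhIL-7-hyFc alone. Macrophages express Havcr2 too: 62.7, 45.2, 30.0 and 38.1% of the macrophage-like barcodes held a UMI of it, in the same order of libraries. The 12 dendritic cell markers, of which T cells also express Bst2 and Ccr7, summed to 1308 CPM after rhIL-7-hyFc at 10 mg/kg and 1477 CPM with buffer, and to 722 CPM with rhIL-7-hyFc plus TCE and 1241 CPM with rhIL-7-hyFc alone. Neutrophil markers were at 0 after rhIL-7-hyFc at 10 mg/kg and 36.9 CPM with buffer, and at 4.95 CPM with rhIL-7-hyFc plus TCE and 135 CPM with rhIL-7-hyFc alone. The CD4 T cell list, which holds Ctla4 and Tnfrsf4 besides Cd4, summed to 766, 981, 832 and 776 CPM in the same order of libraries, with Cd4 at 0 by the gate. Markers of NK and gamma delta T cells summed to 46.6, 52.1, 58.9 and 46.0 CPM, and those of tumour cells and fibroblasts to 65.2, 17.4, 61.3 and 172 CPM. Red blood cell genes were at 0 in all 4 libraries, and B cell markers summed to between 9.43 and 29.9 CPM.

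The members were set against other CD8 T cells of the same library that also lay under the limits on cycling and granzymes. They held more of several cytotoxicity and chemokine genes and less of several genes of naive and memory T cells. Because all classes were cut from the same cells, these differences describe the class and test nothing. A gene is counted as higher or lower where the ratio of CPM + 1 was at least 1.5 in the same direction in each of the 4 libraries. Over the Pdcd1 Tcf7 cells, the 1103 cells with at least 1 UMI of both genes, 208 of 8036 measured genes were higher (2.59%) and 218 were lower (2.71%). Over the 3110 cells with Pdcd1 but neither Havcr2 nor Tcf7, 20 of 7954 genes were higher (0.251%) and 23 lower (0.289%). Over the 10215 cells with no Pdcd1 UMI, 537 of 8077 genes were higher (6.65%) and 354 lower (4.38%). Of the classes compared, the Pdcd1 cells without Havcr2 or Tcf7 therefore differed from the members in the fewest genes. The rule parts that class from the members by Havcr2 alone. The granzyme C to F, cycling and Gzma-high cells were not compared by genes.

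Among effector genes, Prf1, which encodes perforin, stood at 909 CPM in members after rhIL-7-hyFc at 10 mg/kg, 929 CPM with buffer, 364 CPM with rhIL-7-hyFc plus TCE and 577 CPM with rhIL-7-hyFc alone. The Pdcd1 Tcf7 cells had 63.1, 110, 55.6 and 111 CPM of Prf1 in the same order of libraries, and the Pdcd1 cells without Havcr2 or Tcf7 had 149, 304, 154 and 254 CPM. Members were thus the highest of the 3 classes in each library. Gzmb, the granzyme that cleaves caspases in target cells, stood at 4839, 5538, 1929 and 2959 CPM in members, against 1450, 1173, 642 and 1043 CPM in the Pdcd1 Tcf7 cells. Ccl3, an inflammatory chemokine, stood at 427, 338, 250 and 291 CPM in members, against 14.3, 68.9, 4.68 and 78.1 CPM in the Pdcd1 Tcf7 cells and 130, 73.8, 17.7 and 41.2 CPM in the Pdcd1 cells without Havcr2 or Tcf7. After rhIL-7-hyFc at 10 mg/kg, 1 member held 66.4% of the Ccl3 UMIs, and 1 of the Pdcd1 cells without Havcr2 or Tcf7 held 82.7% of theirs. Without these cells the levels were 143 CPM in members and 22.5 CPM in that class. The ratio of Ccl3 to the Pdcd1 Tcf7 cells, with all cells, varied between 3.73 with rhIL-7-hyFc alone and 53.3 with rhIL-7-hyFc plus TCE. Ccl4, a related chemokine, and Ifng, which encodes interferon gamma, were also higher in all 4 libraries than in each class compared by genes. The granzyme C to F, cycling and Gzma-high cells were not among these classes. Ifng stood at 591, 511, 407 and 481 CPM in members, against 180, 282, 128 and 185 CPM in the Pdcd1 cells without Havcr2 or Tcf7. Without the richest cell of each class, Ifng after rhIL-7-hyFc at 10 mg/kg was at 324 CPM in members and 160 CPM in that class, and Ccl4 at 1002 and 169 CPM.

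Among surface molecules, Entpd1 stood at 160, 157, 106 and 89.5 CPM in members, against 20.2, 15.8, 13.2 and 20.8 CPM in the Pdcd1 Tcf7 cells. Cxcr6, the receptor for CXCL16, stood at 507, 772, 563 and 533 CPM in members, against 139, 126, 135 and 177 CPM in the Pdcd1 Tcf7 cells. Lag3, Tigit and Ctla4 were at least 1.5-fold higher than in the Pdcd1 Tcf7 cells in every library. Against the Pdcd1 cells without Havcr2 or Tcf7, Lag3 was between 1.18-fold and 1.69-fold higher, and Tigit between 1.15-fold and 1.49-fold. None of the 15 measured inhibitory receptors outside the rule was 1.5-fold higher or lower than in that class in all 4 libraries, where 0.251% of all genes were higher and 0.289% lower, so a count of 0 does not set this list apart from other genes. Tox, the transcription factor that installs the exhausted state, stood at 74.5, 122, 95.5 and 63.2 CPM in members, against 70.2, 122, 85.3 and 76.1 CPM in the Pdcd1 cells without Havcr2 or Tcf7. Those values differed by at most 1.20-fold, in both directions. Against the Pdcd1-negative cells, Tox was between 3.76-fold and 6.24-fold higher.

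Several further genes were high in members that are not part of the usual exhaustion lists. Sv2c, a synaptic vesicle glycoprotein in neurons, stood at 74.5, 90.1, 102 and 70.3 CPM in members, against 4.55, 12.01, 16.1 and 10.8 CPM in the Pdcd1 Tcf7 cells and 1.16, 5.47, 4.99 and 2.72 CPM in the Pdcd1-negative cells. Gldc, the glycine decarboxylase of the mitochondrial glycine cleavage system, stood at 76.4, 51.7, 120 and 87.5 CPM in members, against 10.4, 14.5, 34.8 and 21.2 CPM in the Pdcd1 Tcf7 cells. Sdcbp2, which encodes syntenin-2, and Glrx, which encodes glutaredoxin, were among the 10 genes with the largest ratios over the Pdcd1 Tcf7 cells. Serpine2, a serine protease inhibitor, stood at 87.6, 66.9, 109 and 75.7 CPM in members and between 1.14 and 7.52 CPM in the Pdcd1-negative cells. Ccr8, a chemokine receptor for CCL1, stood at 147, 126, 67.2 and 92.9 CPM in members and between 1.30 and 15.3 CPM in the Pdcd1-negative cells. Among the 41 members after rhIL-7-hyFc at 10 mg/kg, 1 cell held 35.0% of the Sv2c, 40.4% of the Serpine2 and 32.9% of the Ccr8 UMIs. Adam8, a membrane metalloprotease, and Slc16a3, the lactate exporter MCT4, were among the 10 with the largest ratios over the Pdcd1 cells without Havcr2 or Tcf7.

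The genes lower in members included several of naive and memory T cells. Lef1, a partner of TCF-1, stood at 20.5, 9.97, 25.7 and 10.9 CPM in members, against 82.6, 91.1, 78.2 and 60.9 CPM in the Pdcd1 Tcf7 cells. Slamf6, a surface marker of the TCF-1 positive precursor, stood at 5.59, 7.02, 7.78 and 1.67 CPM in members, against 48.8, 45.5, 45.1 and 23.5 CPM. Socs3, a feedback inhibitor of cytokine signals, Satb1, a chromatin organiser, Emb, which encodes embigin, and Cxcr3, the receptor for the interferon-induced CXCL9 and CXCL10, were at least 1.5-fold lower than in the Pdcd1 Tcf7 cells in every library. Against the Pdcd1 cells without Havcr2 or Tcf7, Emb and Cxcr3 passed that size in every library, while Socs3 was at least 1.43-fold and Satb1 at least 1.32-fold lower. Cxcr3 stood at 35.4, 31.8, 39.1 and 32.2 CPM in members, against 101, 71.1, 59.3 and 57.1 CPM in the Pdcd1 cells without Havcr2 or Tcf7. S1pr1, the receptor that lets T cells leave tissue, stood between 2.36 and 5.44 CPM in members and between 60.3 and 140 CPM in the Pdcd1-negative cells. Il7r, the interleukin-7 receptor chain, stood at 76.4, 162, 256 and 231 CPM in members, against 183.5, 169, 388 and 270 CPM in the Pdcd1 Tcf7 cells. It stood at 136, 152, 327 and 255 CPM in the Pdcd1 cells without Havcr2 or Tcf7 and at 195, 191, 342.5 and 301 CPM in the Pdcd1-negative cells. Members were the lowest of the 4 classes in each library except buffer. Their level was 2.40-fold lower than in the Pdcd1 Tcf7 cells after rhIL-7-hyFc at 10 mg/kg, and between 1.04-fold and 1.52-fold lower in the other libraries.

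**Figure D2:**
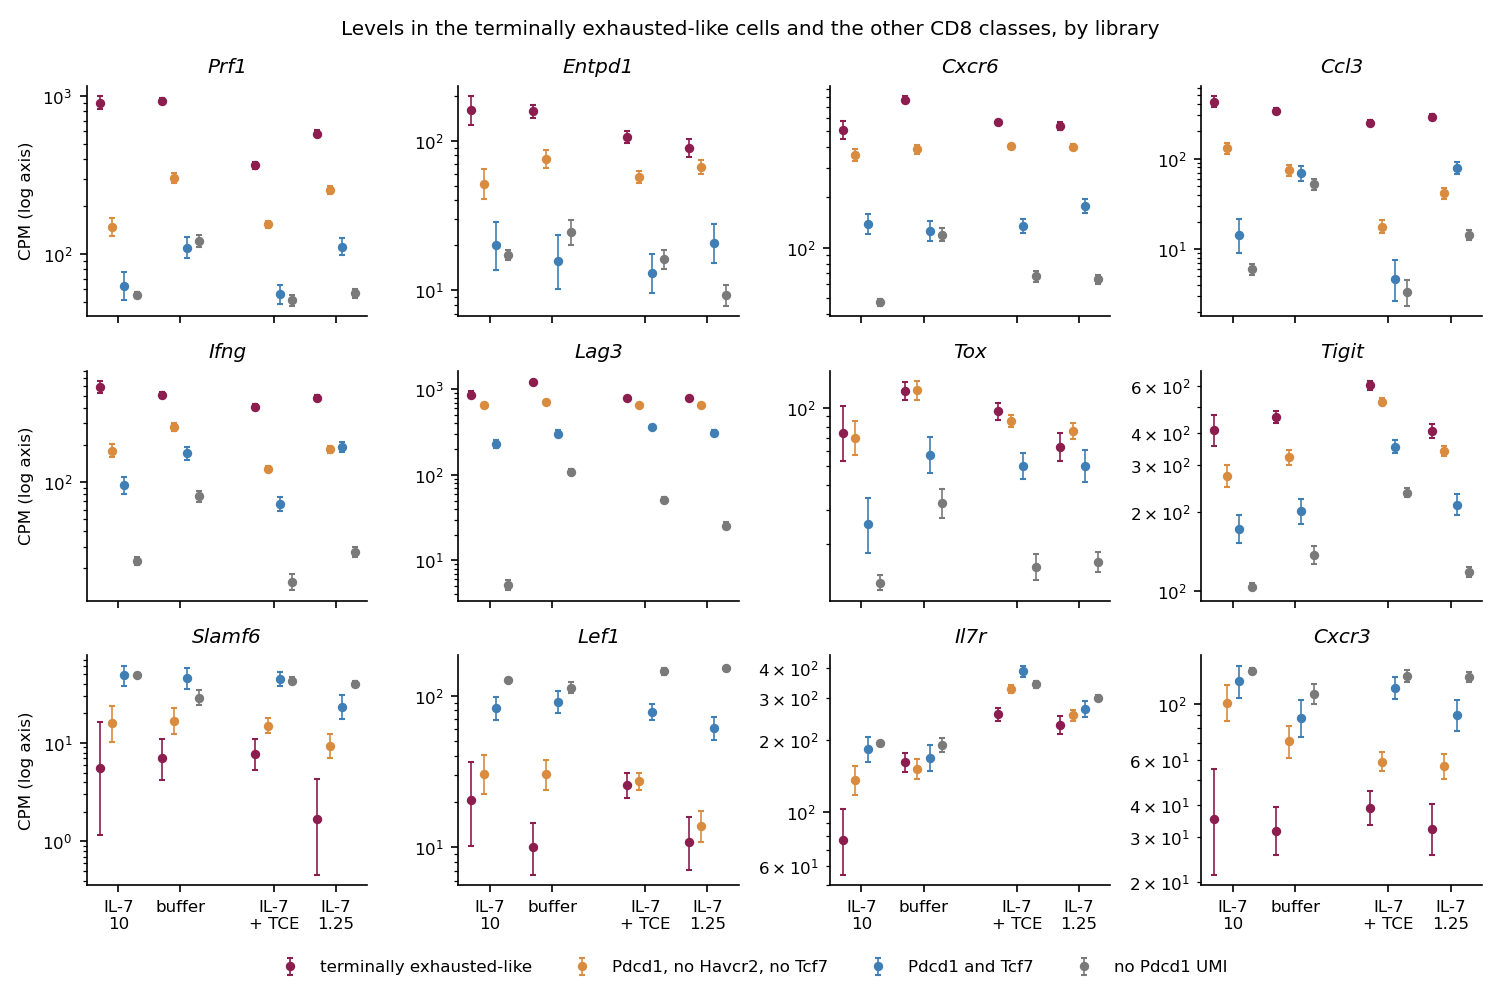
Levels of 12 genes in CPM (log axes that differ by panel) in 4 classes of CD8 T cells in each library, where IL-7 10, IL-7 + TCE and IL-7 1.25 abbreviate the rhIL-7-hyFc groups and error bars are exact 95% Poisson intervals. The terminally exhausted-like cells are the highest class for Prf1, Entpd1, Cxcr6, Ccl3 and Ifng (with 66.4% of the Ccl3 and 45.1% of the Ifng UMIs of the rhIL-7-hyFc 10 mg/kg members in 1 cell) and the lowest for Slamf6 and Cxcr3 in every library, while Tox overlaps with the Pdcd1 cells that have neither Havcr2 nor Tcf7.

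The gene lists gave the same picture by counts. Over the Pdcd1 Tcf7 cells, 0 of 18 stem and memory genes were higher in all 4 libraries and 11 were lower, where 2.71% of all measured genes were lower. Of 17 cytotoxicity genes 5 were higher and 0 lower, and of 14 cytokines and chemokines 6 were higher and 0 lower, where 2.59% of all measured genes were higher. Of 22 genes of glycolysis and hypoxia 7 were higher and 0 lower. Residency and trafficking genes went both ways, with 4 of 20 higher and 4 lower, and of 13 NK-type receptors 2 were higher and 5 lower. Over the Pdcd1 cells without Havcr2 or Tcf7, 4 of 14 cytokines and chemokines and 2 of 17 cytotoxicity genes were higher, against 0.251% of all genes, and 4 of 16 stem and memory genes were lower, against 0.289%. Over the Pdcd1-negative cells, 11 of 21 genes of glycolysis and hypoxia, 10 of 18 exhaustion transcription factors and 9 of 17 cytotoxicity genes were higher, where 6.65% of all genes were, and 14 of 19 stem and memory genes were lower, where 4.38% were.

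In experiment 1, the members after rhIL-7-hyFc at 10 mg/kg had levels of Entpd1 and Prf1 close to those of the buffer members. They held more Xcl1, Nr4a1, Ifitm1 and Cd160, and less Icos, Gzmk and Il7r. The rule asked for Pdcd1 and Havcr2 in every member, so it set their levels in part. Pdcd1 stood at 846 CPM after rhIL-7-hyFc and 801 CPM with buffer, and Havcr2 at 181 and 276 CPM in that order. Entpd1 stood at 160 CPM after rhIL-7-hyFc and 157 CPM with buffer, a ratio of 1.02 (exact conditional interval 0.798 to 1.29). Prf1 stood at 909 CPM after rhIL-7-hyFc and 929 CPM with buffer, and Gzmb at 4839 and 5538 CPM, so both lay within 1.15-fold. Ifng stood at 591 CPM after rhIL-7-hyFc, with 45.1% of its UMIs in a single cell, against 511 CPM with buffer. Lag3 was 1.40-fold lower after rhIL-7-hyFc, at 863 CPM against 1208 CPM, and Ctla4 was 1.46-fold lower, at 395 CPM against 575 CPM.

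Among all 8883 genes measured, those of 5 CPM or more on at least 1 side, 928 were at least 1.5-fold higher after rhIL-7-hyFc (10.4%) and 1685 at least 1.5-fold lower (19.0%), and the median log2 ratio was -0.06. With 41 cells on one side, a single cell could carry such a difference, so the share of UMIs in the richest cell is given for each gene below where it passed 30% in either library.

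Xcl1, the chemokine that draws XCR1 positive dendritic cells, stood at 1148 CPM after rhIL-7-hyFc and 38.0 CPM with buffer, a 30.2-fold difference (interval 24.5 to 37.5). It was seen in 53.7% of the members after rhIL-7-hyFc and 12.7% with buffer, and the richest cell held 27.1% and 11.7% of its UMIs. Nr4a1, an orphan nuclear receptor induced by TCR signals, stood at 797 CPM after rhIL-7-hyFc and 202 CPM with buffer, a 3.95-fold difference (3.47 to 4.49). It was seen in 85.4% of the members after rhIL-7-hyFc and 48.0% with buffer. Ifitm1, an interferon-induced membrane protein, stood at 1699 CPM after rhIL-7-hyFc and 530 CPM with buffer, a 3.21-fold difference (2.95 to 3.48). Cd160, an immunoglobulin-type receptor for HVEM, stood at 207 CPM after rhIL-7-hyFc and 69.8 CPM with buffer, and in 68.3% and 27.9% of the members, though 1 cell held 38.7% of its UMIs after rhIL-7-hyFc. Members chosen anew after thinning held a Xcl1 UMI in 31.7% after rhIL-7-hyFc and 5.73% with buffer. In that order, the shares were 68.3 and 36.2% for Nr4a1, and 26.8 and 21.5% for Cd160.

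Other high ratios rested on few cells. Crtam, an adhesion receptor of activated CD8 T cells, stood at 89.4 CPM after rhIL-7-hyFc and 11.1 CPM with buffer, with 43.8% of its UMIs after rhIL-7-hyFc in 1 cell. Nfkbid, a nuclear regulator of NF-kappaB, stood at 129 CPM after rhIL-7-hyFc and 36.2 CPM with buffer, with 42.0% in 1 cell. Areg, the EGF receptor ligand amphiregulin, stood at 65.2 CPM after rhIL-7-hyFc and 11.8 CPM with buffer, with 88.6% in 1 cell. Ltf, which encodes lactoferrin of neutrophil granules, was read in 1 cell after rhIL-7-hyFc and 2 cells with buffer. Il2, the growth factor of T cells, had 25 UMIs in a single cell after rhIL-7-hyFc and none with buffer. Spp1, the secreted protein osteopontin, stood at 714 CPM after rhIL-7-hyFc and 209 CPM with buffer, and in both libraries 1 cell held over 60% of it, with 61.9% after rhIL-7-hyFc and 62.5% with buffer. Ccl4 stood at 1940 CPM after rhIL-7-hyFc, with 48.3% in 1 cell, and 869 CPM with buffer, a log2 ratio of 1.16 that was 0.29 without the richest cell of each library.

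Among the genes lower after rhIL-7-hyFc, a first set belonged to myeloid and dendritic cells. H2-Eb1, a chain of MHC class II, had no UMI after rhIL-7-hyFc and 275 with buffer, which makes it at least 18.2-fold lower with the floor of 3 counts, and 1 buffer cell held 52.7% of them. H2-Aa, a further chain of class II, had 1 UMI after rhIL-7-hyFc and 425 with buffer, of which 55.3% lay in 1 cell. Cd74, the invariant chain, stood at 59.6 CPM after rhIL-7-hyFc, with 65.6% in 1 cell, and 417 CPM with buffer, with 40.4% in 1 cell. Fscn1 and Ccr7, genes of mature dendritic cells of which naive T cells also express Ccr7, were lower as well. The buffer members had 69.3% of their Fscn1 UMIs in 1 cell, and Ccr7 had 86.0% in 1 cell after rhIL-7-hyFc and 33.1% with buffer. The heat shock gene Hspa1a had no UMI after rhIL-7-hyFc and 236 with buffer, in 19 of the 323 cells and with 44.1% in 1 of them, which makes it at least 15.6-fold lower. Of the 15 measured macrophage markers 0 were higher and 13 lower, where 10.4% of all genes were higher and 19.0% lower, and this RNA's part in other differences was not tested beyond the values given without the cells that carried it.

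A second set of lower genes belonged to T cells. Icos, a costimulatory receptor, stood at 224 CPM after rhIL-7-hyFc and 570 CPM with buffer, 2.55-fold lower (2.12 to 3.10). Gzmk, a granzyme of memory and precursor cells, stood at 83.8 CPM after rhIL-7-hyFc and 234 CPM with buffer, 2.79-fold lower (2.06 to 3.86), with 40.0% of its UMIs after rhIL-7-hyFc in 1 cell. Il7r stood at 76.4 CPM after rhIL-7-hyFc and 162 CPM with buffer, 2.12-fold lower (1.54 to 2.99), and in 58.5% and 49.8% of the members. Of the members chosen anew after thinning, 19.5% after rhIL-7-hyFc and 33.0% with buffer held an Il7r UMI. Tnfrsf18, the costimulatory receptor GITR, stood at 322 CPM after rhIL-7-hyFc and 566 CPM with buffer, 1.76-fold lower. Tox stood at 74.5 CPM after rhIL-7-hyFc and 122 CPM with buffer, 1.63-fold lower (1.17 to 2.33). Bcl2, the survival factor downstream of interleukin-7, stood at 76.4 CPM after rhIL-7-hyFc and 140 CPM with buffer, 1.84-fold lower (1.33 to 2.60). Osgin1, a gene induced by oxidative stress, stood at 22.4 CPM after rhIL-7-hyFc and 105 CPM with buffer, 4.71-fold lower (2.65 to 9.22). Adgrg1, the adhesion receptor GPR56, stood at 16.8 CPM after rhIL-7-hyFc and 55.4 CPM with buffer.

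By lists, few groups stood away from the 10.4% of genes higher and 19.0% lower in experiment 1. Of 13 costimulatory receptors 0 were higher and 4 lower (median log2 ratio -0.38), and of 18 genes of the interleukin-7 and STAT5 response 0 were higher and 3 lower (median -0.29). Of 16 cytokines and chemokines 6 were higher and 4 lower (median 0.24). Of 43 genes of the type I interferon response 5 were higher and 1 lower, with a median of 0.30 that was 0.17 when each gene was counted without its richest cell. Usp18, a feedback inhibitor of that pathway, stood at 386 CPM after rhIL-7-hyFc and 221 CPM with buffer, 1.75-fold higher (1.48 to 2.05). Slfn8, also of that list, stood at 108 CPM after rhIL-7-hyFc and 56.1 CPM with buffer. Of 18 early genes of TCR signals 4 were higher and 4 lower, so Nr4a1 did not stand for that list. Of 16 inhibitory receptors outside the rule 2 were higher and 3 lower (median -0.07), of 17 cytotoxicity genes 1 was higher and 1 lower, and none of 38 genes of oxidative phosphorylation or 48 ribosomal proteins passed 1.5-fold. Of 31 interferon gamma response genes 4 were higher and 5 lower, and of 23 genes of glycolysis and hypoxia 0 were higher and 3 lower.

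**Figure D3:**
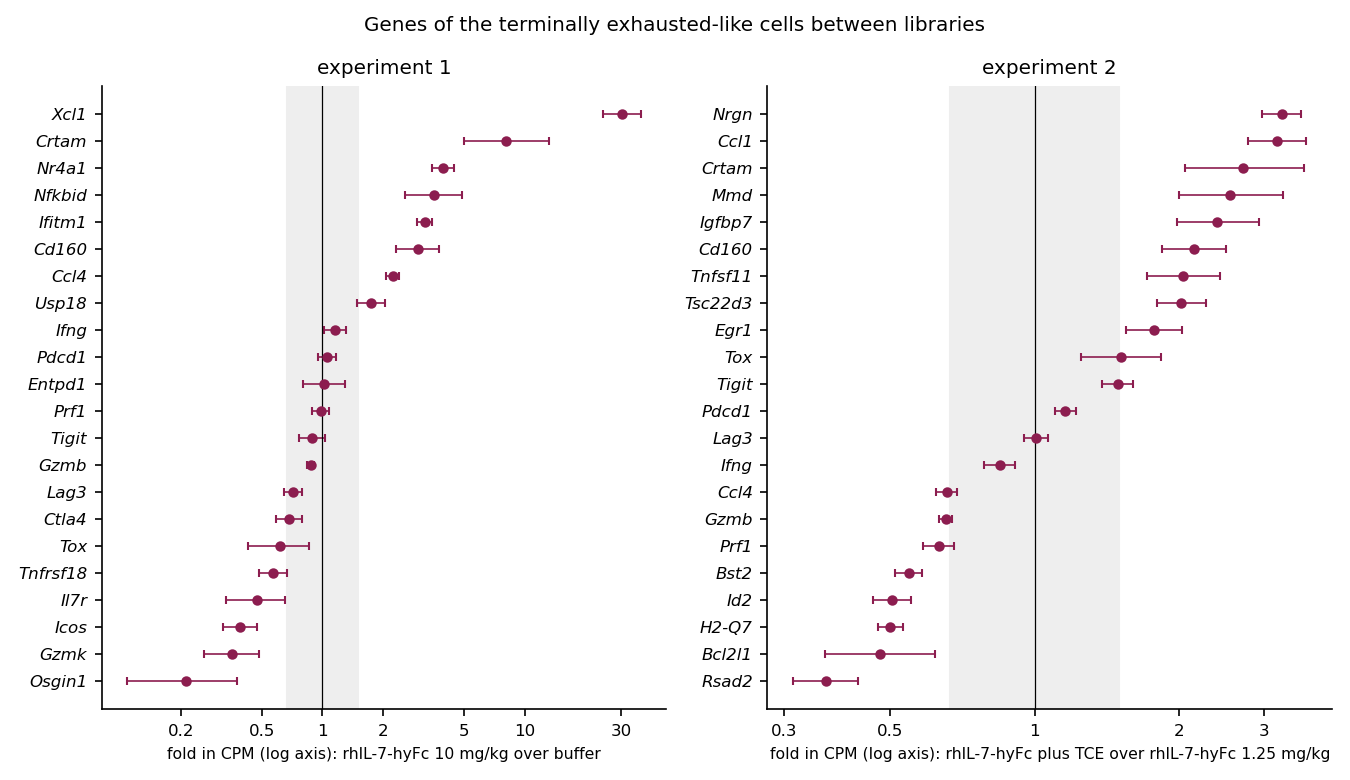
Ratio of CPM in terminally exhausted-like cells for 22 genes in each experiment (log axis), rhIL-7-hyFc 10 mg/kg over buffer on the left and rhIL-7-hyFc plus TCE over rhIL-7-hyFc 1.25 mg/kg on the right, with exact 95% conditional intervals for counting error; the grey band marks ratios under 1.5-fold either way. Xcl1 lies at 30.2 on the left, while Nrgn at 3.26 is the highest of the genes drawn on the right.

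In experiment 2, the members with rhIL-7-hyFc plus TCE held more Nrgn, Cd160 and Tsc22d3 than those with rhIL-7-hyFc alone. They held less Gzmb and Prf1 and less of many interferon-stimulated genes. Of 9106 measured genes 653 were at least 1.5-fold higher with the combination (7.17%) and 594 at least 1.5-fold lower (6.52%), with a median log2 ratio of 0.06. Pdcd1 stood at 1164 CPM with the combination and 1005 CPM with rhIL-7-hyFc alone, and Havcr2, also of the rule, at 295 and 248 CPM in that order. Lag3 stood at 787 CPM with the combination and 782 CPM with rhIL-7-hyFc alone, a ratio of 1.01 (0.9503 to 1.065). Il7r stood at 256 CPM with the combination and 231 CPM with rhIL-7-hyFc alone, a ratio of 1.11.

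Nrgn, the calmodulin-binding protein neurogranin, stood at 707 CPM with rhIL-7-hyFc plus TCE and 217 CPM with rhIL-7-hyFc alone, a 3.26-fold difference (2.97 to 3.59). It was seen in 67.5% of the members with the combination and 42.7% with rhIL-7-hyFc alone, and no cell held over 3.67% of its UMIs. Cd160 stood at 194 CPM with the combination and 90.4 CPM with rhIL-7-hyFc alone, 2.14-fold higher (1.841 to 2.499), in 52.0% and 31.2% of the members. Tigit stood at 605 CPM with the combination and 406 CPM with rhIL-7-hyFc alone, 1.49-fold higher (1.38 to 1.60). Tox stood at 95.5 CPM with the combination and 63.2 CPM with rhIL-7-hyFc alone, 1.51-fold higher (1.25 to 1.83), though 1.08-fold with each clonotype counted once. Tsc22d3, the glucocorticoid-induced leucine zipper, stood at 316 CPM with the combination and 157 CPM with rhIL-7-hyFc alone, 2.02-fold higher, in 72.5% and 51.9% of the members. These genes were spread over many cells in both libraries.

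Ccl1, the ligand of CCR8, stood at 322 CPM with rhIL-7-hyFc plus TCE and 101 CPM with rhIL-7-hyFc alone, but was read in only 9.82% and 9.24% of the members, so the difference lay in the level per positive cell. The richest cell held 18.2% of its UMIs with the combination and 20.7% with rhIL-7-hyFc alone. Tnfsf11, the cytokine RANKL, stood at 145 CPM with the combination and 71.1 CPM with rhIL-7-hyFc alone. Igfbp7, a secreted IGF-binding protein, stood at 130 CPM with the combination and 54.4 CPM with rhIL-7-hyFc alone, and Mmd, a membrane protein, at 85.3 and 33.5 CPM in that order. Crtam stood at 69.3 CPM with the combination and 25.5 CPM with rhIL-7-hyFc alone. Egr1, an immediate early gene of TCR signals, stood at 213 CPM with the combination and 121 CPM with rhIL-7-hyFc alone, 1.77-fold higher (1.55 to 2.03). Its relative Egr3 had 36 UMIs with the combination and 3 with rhIL-7-hyFc alone, a ratio of 6.76 (2.14 to 34.3). Dusp2, a MAP kinase phosphatase from the same list of early genes, went the other way, at 410 CPM with the combination and 646 CPM with rhIL-7-hyFc alone. Slamf6 had 33 UMIs with the combination and 4 with rhIL-7-hyFc alone, and Lef1 stood at 25.7 CPM and 10.9 CPM in that order.

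Gzmb stood at 1929 CPM with rhIL-7-hyFc plus TCE and 2959 CPM with rhIL-7-hyFc alone, 1.53-fold lower (1.49 to 1.58). Prf1 stood at 364 CPM with the combination and 577 CPM with rhIL-7-hyFc alone, 1.58-fold lower (1.47 to 1.71). Cells rich in granzymes C to F and A were outside the rule, so these values speak only of the members. Id2, a regulator of effector differentiation, stood at 208 CPM with the combination and 412 CPM with rhIL-7-hyFc alone, 1.98-fold lower (1.81 to 2.17), in 61.6% and 80.7% of the members. Bcl2l1, the survival factor BCL-xL, stood at 25.7 CPM with the combination and 54.0 CPM with rhIL-7-hyFc alone. Ifng stood at 407 CPM with the combination and 481 CPM with rhIL-7-hyFc alone, and in 52.3% and 52.4% of the members. Ccl4 stood at 785 CPM with the combination and 1197 CPM with rhIL-7-hyFc alone, but this direction turned when cells were thinned or each clonotype was counted once.

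The 10 lowest log2 ratios of experiment 2 all belonged to genes that myeloid cells express, among them Ccl2, Fcgr1, Il1b, Lgmn, H2-Aa and H2-Ab1. The members with rhIL-7-hyFc alone included the 24 cells that held 91.3% of that library's myeloid UMIs. All 17 measured macrophage and monocyte markers were lower (median -3.39). For this reason the interferon genes are given with and without those cells.

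Of 41 genes of the type I interferon response 0 were higher and 23 lower with rhIL-7-hyFc plus TCE (median log2 ratio -0.61), where 6.52% of all genes were lower. Without the members that held at least 10 myeloid UMIs, 12 of the 41 were lower and 0 higher (median -0.41), where 3.96% of all genes were lower. Bst2, which encodes the antiviral membrane tether tetherin, stood at 448 CPM with the combination and 821 CPM with rhIL-7-hyFc alone, 1.83-fold lower (1.72 to 1.95), and 1.72-fold lower without the cells with myeloid RNA. Rsad2, the antiviral enzyme viperin, stood at 64.6 CPM with the combination and 176 CPM with rhIL-7-hyFc alone, a log2 ratio of -1.43 that was -0.95 without those cells. Oasl2, of the oligoadenylate synthetase family, stood at 9.19 CPM with the combination and 36.8 CPM with rhIL-7-hyFc alone, a log2 ratio of -1.89 that was -0.85 without them. H2-Q7, a nonclassical MHC class I gene, stood at 495 CPM with the combination and 988 CPM with rhIL-7-hyFc alone, 2.00-fold lower with all members and without those cells, and in 89.6% and 97.8% of the members. The interferon gamma list had 0 of 30 genes higher and 7 lower (median -0.36), and 5 lower without those cells (median -0.22). Cxcl10, a chemokine induced by interferons in many cell types, was 3.32-fold lower with all members and 1.88-fold lower without them.

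The other lists of experiment 2 gave smaller counts, to be read against the 7.17% of all genes higher and 6.52% lower. Of 24 genes of glycolysis and hypoxia 0 were higher and 6 lower (median -0.45), among them Slc2a1, the glucose transporter GLUT1, at 38.9 CPM with rhIL-7-hyFc plus TCE and 85.4 CPM with rhIL-7-hyFc alone. Of 13 NK-type receptors 1 was higher and 6 lower (median -0.52). Of 16 inhibitory receptors outside the rule 1 was higher, Cd160, and 1 lower, Lilrb4a, shares like those of all genes. Of 20 early genes of TCR signals 3 were higher and 2 lower (median 0.01). Of 19 exhaustion transcription factors 2 were higher and 3 lower, of 17 stem and memory genes 3 were higher and 5 lower, and of 17 cytotoxicity genes 0 were higher and 2 lower. Of 19 genes of the interleukin-7 and STAT5 response 0 were higher and 3 lower (median -0.13). None of 15 genes of CD3 and proximal TCR signalling and none of 38 of oxidative phosphorylation passed 1.5-fold.

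**Figure D4:**
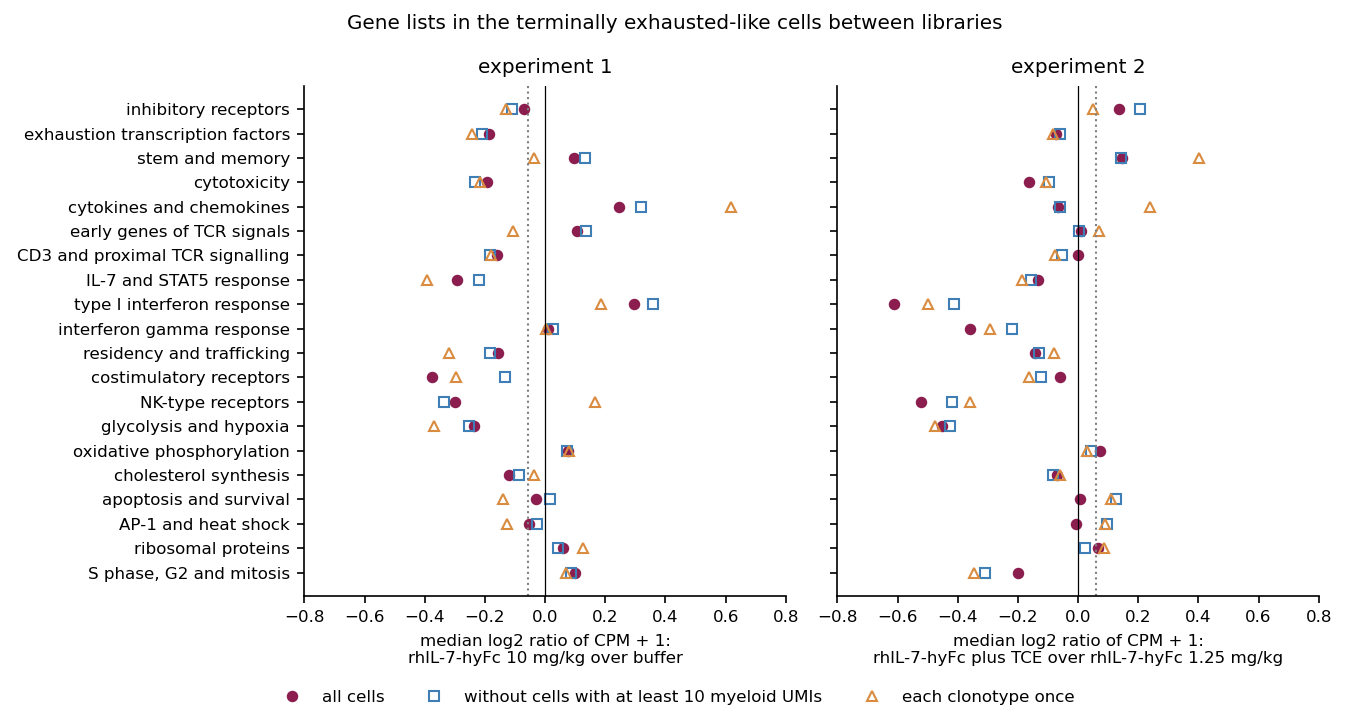
Median log2 ratio of CPM + 1 over the measured genes of 20 lists in terminally exhausted-like cells, rhIL-7-hyFc 10 mg/kg over buffer (left) and rhIL-7-hyFc plus TCE over rhIL-7-hyFc 1.25 mg/kg (right), with all cells (circles), without the cells with at least 10 myeloid UMIs (squares) and with each clonotype counted once (triangles); dotted lines mark the median of all measured genes. The type I interferon list lies lowest on the right, at -0.61 with all cells and -0.41 without the myeloid ones, and at 0.30 on the left.

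The TCR libraries showed that most of these cells shared their clonotype with another CD8 T cell of their library, a clonotype being the cells with the same set of productive alpha and beta CDR3 nucleotide sequences. The CDR3 is the stretch of the receptor where V and J segments join, and it meets the antigen. In the beta chain a D segment lies between them, so bases at the join can come from it. The beta CDR3 sequence of a clonotype with the most members in each library is shown, with both of those that tied in the buffer library. A beta sequence is only a part of what defines a clonotype here. That of the TRBV13-1 clonotype of the buffer library was also read in 1 other library. With rhIL-7-hyFc at 1.25 mg/kg the clonotype shown was 1 of 2 with 14 members. They are written 5′ to 3′, and all derive from the Trb locus on chromosome 6 of GRCm38. Capitals mark the bases at the join, those after the longest start and before the longest end that at least 10% of CDR3s with the same V or J segment shared.
rhIL-7-hyFc 10 mg/kg, TRBV26 TRBJ1-1, 3 members: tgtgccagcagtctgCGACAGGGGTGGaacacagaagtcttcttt
buffer, TRBV2 TRBJ2-1, 25 members: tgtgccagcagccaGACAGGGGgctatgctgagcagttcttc
buffer, TRBV13-1 TRBJ2-7, 25 members: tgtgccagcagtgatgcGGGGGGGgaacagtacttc
rhIL-7-hyFc plus TCE, TRBV16 TRBJ2-5, 79 members: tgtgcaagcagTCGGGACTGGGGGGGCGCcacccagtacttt
rhIL-7-hyFc 1.25 mg/kg, TRBV5 TRBJ2-1, 14 members: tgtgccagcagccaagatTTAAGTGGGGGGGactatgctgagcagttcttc

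The joins differed in length, with 8 bases in the TRBV2 clonotype of the buffer library and 18 in the TRBV16 clonotype of the combination. Over the whole CD8 gate, the libraries of experiment 1 shared 2 whole clonotypes and 14 beta sequences, and those of experiment 2 shared 7 and 56. Among members alone, experiment 1 shared 0 whole clonotypes and 0 beta sequences, and experiment 2 shared 2 and 5.

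Members in a clonotype of at least 2 members made up 26.8% after rhIL-7-hyFc at 10 mg/kg (interval 14.2 to 42.9%) and 75.0% with buffer (69.3 to 80.1%). In experiment 2 they made up 77.2% with rhIL-7-hyFc plus TCE (73.4 to 80.6%) and 67.1% with rhIL-7-hyFc alone (61.4 to 72.5%). Without the gates on cycling and granzymes, the shares were 77.1% after rhIL-7-hyFc at 10 mg/kg and 87.1% with buffer, and 83.1% with rhIL-7-hyFc plus TCE and 84.1% with rhIL-7-hyFc alone, so the gap in experiment 1 was smaller without them. This share depends on how many members were read, so the clonotypes expected at equal cell numbers were computed. At 41 cells, 35.0 clonotypes were expected after rhIL-7-hyFc at 10 mg/kg and 28.9 with buffer. At 286 cells, 136 were expected with rhIL-7-hyFc plus TCE and 141 with rhIL-7-hyFc alone. The largest clonotype held 3 members after rhIL-7-hyFc at 10 mg/kg and 25 with buffer, and 79 with rhIL-7-hyFc plus TCE and 14 with rhIL-7-hyFc alone.

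When a clonotype was counted over the whole CD8 gate, the members were clonal in each library. The share of members in a clonotype of at least 2 CD8 cells was 82.9% after rhIL-7-hyFc at 10 mg/kg and 87.9% with buffer, and 94.0% with rhIL-7-hyFc plus TCE and 90.6% with rhIL-7-hyFc alone. It was 13.4, 18.0, 40.5 and 28.8% for the Pdcd1 Tcf7 cells in the same order of libraries, and 45.4, 64.4, 82.2 and 79.9% for the Pdcd1 cells without Havcr2 or Tcf7. Of the Pdcd1-negative cells, 0.636, 11.6, 6.29 and 3.44% were in such clonotypes. Members had the highest share of these 4 classes in every library. The granzyme C to F cells stood at 77.4, 82.6, 94.4 and 92.1%, below the members in experiment 1 and slightly above them in experiment 2.

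The clonotypes of the members reached far into the classes that the gates had set aside. With rhIL-7-hyFc plus TCE, 82.2% of the granzyme C to F cells carried a clonotype that also had a member, as did 68.8% with rhIL-7-hyFc alone. In experiment 1 it was 24.7% after rhIL-7-hyFc at 10 mg/kg and 69.9% with buffer. Of the cycling cells 37.9% carried one with rhIL-7-hyFc plus TCE and 38.5% with rhIL-7-hyFc alone, and 7.85% did after rhIL-7-hyFc at 10 mg/kg and 62.4% with buffer. Of the Gzma-high cells 4.39% carried a member clonotype with rhIL-7-hyFc plus TCE and 35.5% with rhIL-7-hyFc alone, and 0.837% did after rhIL-7-hyFc at 10 mg/kg and 29.0% with buffer. That class made up 17.7% of the CD8 gate with the combination and 2.29% with rhIL-7-hyFc alone. In experiment 1 it made up 4.64% after rhIL-7-hyFc at 10 mg/kg and 3.71% with buffer. Of the Pdcd1 Tcf7 cells 25.5% carried a member clonotype with rhIL-7-hyFc plus TCE and 17.9% with rhIL-7-hyFc alone, and 2.36% did after rhIL-7-hyFc at 10 mg/kg and 10.0% with buffer. These shares depend in part on the number of members read, which was lowest after rhIL-7-hyFc at 10 mg/kg.

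**Figure D5:**
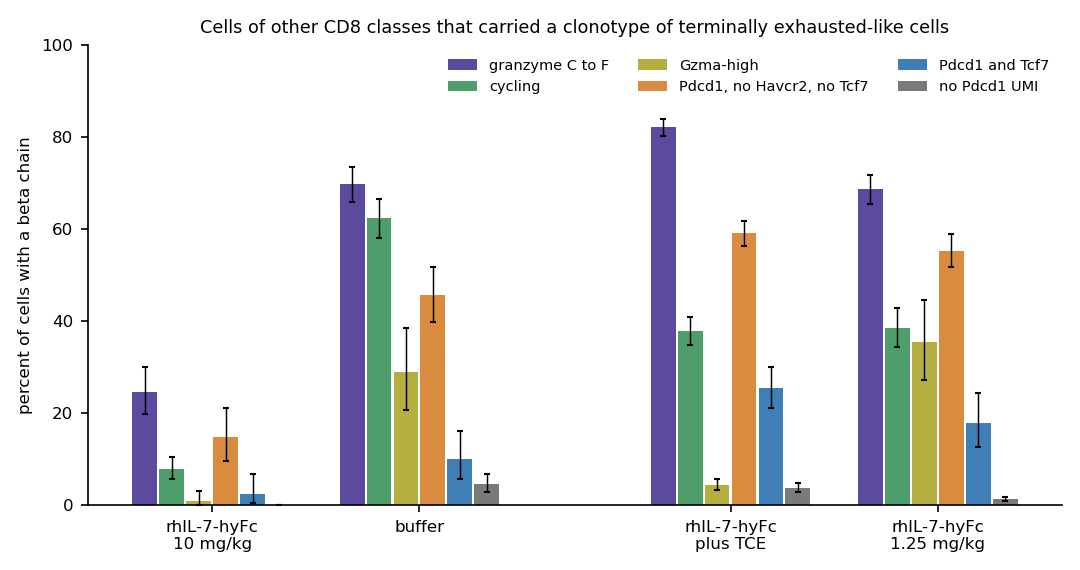
Percent of the cells of each other CD8 class, among those with a TCR beta chain, that carried a clonotype with at least 1 terminally exhausted-like cell in the same library; error bars are exact 95% Clopper-Pearson intervals. The granzyme C to F cells are the highest class in every library, between 24.7 and 82.2%, and the cells with no Pdcd1 UMI are the lowest, between 0 and 4.52%.

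Seen from the members, 70.7% after rhIL-7-hyFc at 10 mg/kg and 74.2% with buffer had a clonotype mate among the granzyme C to F cells, as did 83.3% with rhIL-7-hyFc plus TCE and 78.0% with rhIL-7-hyFc alone. A mate among the Pdcd1 Tcf7 cells was seen for 7.32% after rhIL-7-hyFc at 10 mg/kg and 22.0% with buffer, and for 48.0% with rhIL-7-hyFc plus TCE and 29.0% with rhIL-7-hyFc alone. The largest clonotype of the combination, the TRBV16 one shown above, had 475 cells in the CD8 gate, of which 239 were granzyme C to F cells, 79 members, 50 cycling cells and 6 Pdcd1 Tcf7 cells.

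Levels also varied between the clonotypes of 1 library. Among the 6 clonotypes with at least 10 members in the rhIL-7-hyFc plus TCE library, Gzmb lay between 895 and 4141 CPM, Prf1 between 251 and 805 CPM and Ifng between 65.0 and 679 CPM. Among the 3 such clonotypes with rhIL-7-hyFc alone, Gzmb lay between 3765 and 6560 CPM and Ifng between 210 and 730 CPM, while Prf1 lay between 706 and 826 CPM, a 1.17-fold span. In the buffer library, with 4 such clonotypes, Gzmb lay between 4965 and 9731 CPM, Prf1 between 205 and 1161 CPM, Ifng between 216 and 380 CPM and Tox between 60.7 and 205 CPM. Pdcd1 and Havcr2, whose spread the rule itself narrows, spanned between 1.17-fold and 1.74-fold in these libraries. No clonotype after rhIL-7-hyFc at 10 mg/kg had 10 members.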

How the data were processed

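Expression and TCR libraries of sorted or bead-selected tumour CD8 T cells were used, 4 of each. Per the file headers, Cell Ranger 4.0.0 (experiment 1, 31053 features) and 6.1.2 (experiment 2, 32285 features) produced the deposited UMI counts of each gene in each barcode. The build was GRCm38 according to the submitters' processing notes. TCR tables, as deposited, give each chain of a barcode with its reads and UMI counts, and no version is given for them in the sources used here. Barcodes with at least 500 genes and under 10% mitochondrial UMIs were kept. No doublet caller was run; cells with more than 1 beta chain were left out as an alternative. UMIs were summed over cells of a class and library and divided by their total (CPM). Ratios were called at 1.5-fold on CPM + 1 among genes with at least 5 CPM in 1 of the 2 pools. Intervals are at 95% (Clopper-Pearson, Poisson, conditional binomial), PCR and cells not being independent samples. A count of 0 was set to 3 in ratios.

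The members, gene lists and tests were chosen with earlier results of these data known. Named genes were the 10 highest and 10 lowest log2 ratios at 50 CPM or more, without TCR, immunoglobulin, mitochondrial and ribosomal protein genes and genes of the rule, the 3 largest of each list, and a set always given (such as Tox, Gzmb and Il7r); genes of the text were taken from these, and Cd101, Trac and the marker lists were added, as were the Ccr7 and Lef1 cells, after the data were seen. The calls, intervals and clonotype formula were tested on simulated data. The simulated gene counts were Poisson draws of pooled members, without spread between cells. They do not test calls or intervals where 1 cell holds much of a gene. Library totals ran between 47308214 and 118191371 UMIs and between 5589 and 12560 barcodes. Cells under 4000 UMIs were left out of thinned values (217 CD8 cells after rhIL-7-hyFc at 10 mg/kg, 684 with buffer, 1288 with rhIL-7-hyFc plus TCE and 1479 with rhIL-7-hyFc alone). The rule was then applied to the thinned counts, so thinned values of members are not all from the same cells as the others. Values of both experiments stand side by side in places. Because Cell Ranger version, selection and depth differed, no difference between the experiments is to be read from these levels, shares or ratios. Python 3.11.15, numpy 2.4.6, pandas 2.3.3, scipy 1.17.1 and matplotlib 3.10.9 were used.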

Additional observations from a re-analysis of the deposited data

How the results depend on the processing

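No paired analysis was possible because each group has 1 library. The alternatives that leave out cells with at least 10 myeloid UMIs, and that count each gene without its richest cell, were chosen after seeing the data. The share of members moved most with the rule: with at least 2 UMIs of both receptors it was 0.405% after rhIL-7-hyFc at 10 mg/kg, 4.56% with buffer, 2.86% with rhIL-7-hyFc plus TCE and 1.76% with rhIL-7-hyFc alone. Without the gates on cycling and granzymes it was 6.27, 36.7, 24.0 and 16.7% in that order. The ratio of shares in experiment 1 was 0.171 without those gates, and in experiment 2 it was 1.62 with at least 2 UMIs. The directions of both ratios held under all alternatives run.

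Members in clonotypes of at least 2 members were 77.1, 87.1, 83.1 and 84.1% without the gates, in the same order of libraries. With at least 2 UMIs they were 69.2% with buffer, 70.0% with rhIL-7-hyFc plus TCE and 53.0% with rhIL-7-hyFc alone, and with beta CDR3s alone 80.6% with rhIL-7-hyFc plus TCE.

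Counts of called genes depended on the settings far more than directions did. In experiment 1 the 928 higher genes were 2380 after thinning, which leaves fewer UMIs in the small pool, 170 without the gates, 394 at 20 CPM, 1523 with no filter, 614 with CPM + 5 and 437 without the richest cell. The 1685 lower genes were 256 without the gates, 608 at 20 CPM, 3342 with no filter and 2535 as a mean over cells. Of all called genes 35.5% were higher, against 51.7% after thinning, 24.7% as a mean over cells and 15.0% without the richest cell, where the median of all genes was -0.25. In experiment 2 the 653 higher genes were 1033 after thinning, 1285 with at least 2 UMIs, 192 without the gates, 200 at 20 CPM, 1360 with no filter, 303 with CPM + 5 and 1110 with each clonotype once. The 594 lower genes were 952 with at least 2 UMIs, 311 without the gates, 354 without cells with myeloid RNA, 248 at 20 CPM, 1253 with no filter and 951 with each clonotype once. The higher genes were 52.4% of those called, 38.2% without the gates and 66.7% without cells with myeloid RNA.

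Over the Pdcd1 Tcf7 cells the 218 lower genes were 111 at 20 CPM and 356 with no filter. Over the Pdcd1 cells without Havcr2 or Tcf7 the 20 higher genes were 31 without the gates, 11 at 20 CPM, 10 with CPM + 5 and 13 as a mean over cells. The 23 lower genes of that comparison were 50 with at least 2 UMIs, 35 without cells with myeloid RNA, 6 at 20 CPM, 53 with no filter, 15 with CPM + 5 and 55 with each clonotype once. Over the Pdcd1-negative cells, 349 genes were higher and 195 lower at 20 CPM.

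Few named genes reversed, but more log2 ratios moved outside the counting interval of the main value. Over all alternatives and named genes of experiment 1, 125 values moved, 5 reversed and 718 stayed inside. In experiment 2, 184 moved, 2 reversed and 753 stayed inside. In experiment 1 the log2 ratio of Areg was -2.85 after thinning, -0.47 without the gates and -0.17 without the richest cell, and that of Ltf was -3.32 after thinning and -4.40 with at least 2 UMIs. In experiment 2 that of Ccl4 was 0.34 after thinning and 0.24 with each clonotype once. Spp1 over the Pdcd1-negative cells was -0.34 without the gates in the library nearest 0. The cause of these changes was not tested. The limit of these data is 1 library a group: a difference between treatments and one between 2 tumours or preparations cannot be told apart. In experiment 1 it is also the 41 cells after rhIL-7-hyFc.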
